A study of Mus musculus with 9 samples.

Results

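Small RNA reads that began inside the mature miRNA sequence and reached its 3′ end were examined in preleukemic mouse cells with and without Tut4 and Tut7. A read was counted as shifted when it started at least 1 base after the first mature base, and the number of skipped bases is its offset. The 9 libraries held 668 such read sequences among 3852 distinct read sequences, and these were 37966 of 2725482 reads. They belonged to 272 of 817 miRNAs. The comparisons used 76 miRNAs that reached 50 reads in each of the libraries, called covered miRNAs here, which held 34220 shifted reads. Just inside this limit miR-130b-5p had 50 reads in its lowest library and 2 shifted reads in all, and just outside it miR-30a-3p had 49 and 294. Of these 76, 70 had a shifted read, and miR-122-5p, miR-146b-5p, miR-221-5p, miR-15b-5p, miR-330-5p and miR-296-5p had 0.

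The cells were derived from fetal liver, enriched for c-Kit and infected with retroviruses carrying Meis1 and Hoxa9, which confer a preleukemic state, and grown in IMDM with serum, SCF, IL-6 and IL-3. The 4 Tut4/7 cKO libraries came from Tut4 fl/fl; Tut7 fl/fl cells with Vav-iCre, a Cre active in the hematopoietic system. The 5 Tut4/7 CTL libraries, labelled wild type, came from littermates that carried the floxed alleles without iCre. Both genotypes received the same oncogenes and culture, and small RNA libraries contain no Tut4 or Tut7 mRNA, so the deletion has no direct check here. Of the blood cell markers, miR-223-3p had 372 to 3778 and miR-155-5p 195 to 3491 reads per library, while miR-142a-3p, common to blood cells, had only 12 to 55 and erythroid miR-451a at most 2. Liver miR-122-5p had 102 to 554.

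A mature miRNA guides Argonaute to mRNAs that pair with its seed, the bases 2 to 8 from its 5′ end. A 5′ end that lies further inside the precursor arm moves the seed along the sequence, so that the same gene can yield a guide with other targets. TUT4 and TUT7 add uridines to the 3′ ends of RNAs, including precursor and mature miRNAs, and a uridine reads as T in the libraries.

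The sequences below are examples of miRNAs with large shifted shares, many shifted reads, shared shifted seeds or a genotype difference in shift odds. Each line gives the most frequent unshifted or shifted read, and capitals mark its own seed. The miR-92a-3p read also ends in a T past the mature 3′ end.
miR-10a-5p unshifted: tACCCTGTagatccgaatttgtg
miR-10a-5p shifted by 1: aCCCTGTAgatccgaatttgtg
miR-361-3p unshifted: tCCCCCAGgtgtgattctgatttgt
miR-361-3p shifted by 1: cCCCCAGGtgtgattctgatttgt
miR-330-3p unshifted: gCAAAGCAcagggcctgcagaga
miR-330-3p shifted by 1: cAAAGCACagggcctgcagaga
miR-140-3p unshifted: tACCACAGggtagaaccacgg
miR-140-3p shifted by 1: aCCACAGGgtagaaccacgg
miR-296-3p unshifted: gAGGGTTGggtggaggctctcc
miR-296-3p shifted by 1: aGGGTTGGgtggaggctctcc
miR-191-5p shifted by 1: aACGGAATcccaaaagcagctg
miR-92a-3p shifted by 1: aTTGCACTtgtcccggcctgt
miR-25-3p shifted by 1: aTTGCACTtgtctcggtctga
miR-5099 unshifted: tTAGATCGatgtggtgctcc
miR-5099 shifted by 4: aTCGATGTggtgctcc
let-7a-5p unshifted: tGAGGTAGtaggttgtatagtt
let-7a-5p shifted by 1: gAGGTAGTaggttgtatagtt
let-7d-5p unshifted: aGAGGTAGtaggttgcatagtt
let-7d-5p shifted by 1: gAGGTAGTaggttgcatagtt
let-7f-5p shifted by 1: gAGGTAGTagattgtatagtt
let-7i-5p shifted by 1: gAGGTAGTagtttgtgctgtt
let-7d-3p unshifted: cTATACGAcctgctgcctttct
let-7d-3p shifted by 1: tATACGACctgctgcctttct
miR-27b-3p shifted by 1 with 2 Ts: tCACAGTGgctaagttctgctt
miR-423-5p shifted by 2 with 1 T: aGGGGCAGagagcgagactttt

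In GRCm39 these mature sequences lie within annotated miRNA genes. The miR-10a-5p sequence is at chr11:96208012-96208034 on the plus strand in Mir10a, which lies in the Hoxb cluster. The miR-361-3p sequence is at chrX:111984524-111984548 on the minus strand in Mir361, and miR-330-3p is at chr7:18915450-18915472 on the plus strand in Mir330. The miR-140-3p sequence is at chr8:108277920-108277940 on the plus strand in Mir140. The let-7d arms are at chr13:48689554-48689575 (5p) and chr13:48689500-48689521 (3p) on the minus strand in Mirlet7d. The let-7a-5p sequence is in Mirlet7a-1, at chr13:48691715-48691736 on the minus strand, and in Mirlet7a-2, at chr9:41448028-41448049 on the plus strand.

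One control library stood apart. The median uridylated share over covered miRNAs, counting all reads, was 0.874% in Tut4/7 CTL replicate 2. It was 3.74% to 5.74% in the other 4 Tut4/7 CTL libraries and 0.253% to 0.528% in the Tut4/7 cKO libraries. Its genotype label cannot be checked with small RNA reads and was not tested. The counts of calls and the values that it moved most are given with and without it.

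Shifted starts were concentrated in few miRNAs. The first 10 miRNAs held 86.6% of the shifted reads of covered miRNAs, and the first 3, miR-10a-5p (9021 reads), miR-5099 (4345) and miR-361-3p (4004), held 50.8%. The mean shifted share over the 9 libraries, that is shifted reads among reads that reached the mature 3′ end, was below 1% in 58 of 76 miRNAs and above 10% in 7. It was above 50% in 4, miR-5099, miR-330-3p, miR-361-3p and miR-10a-5p.

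Offset 1 was the usual shift. It held 85.1% of the shifted reads, and 97.2% when miR-5099 was left out. Among the 43 covered miRNAs with at least 10 shifted reads, 37 had most of them at offset 1. Offset 2 led in miR-103-3p, miR-148a-3p, miR-298-5p, miR-342-3p and miR-423-5p. The miRNAs with the most reads at offset 2 were miR-423-5p (87), miR-320-3p (63) and miR-342-3p (61), while miR-5099 (1207), miR-181a-5p (16) and miR-26a-5p (12) led at offset 3. Offset 4 led in miR-5099 alone.

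miR-10a-5p, the miRNA of the Hoxb locus, had a near even split between its 2 starts among reads that reached the mature 3′ end. Counted by start alone, whether or not reads reached that end, its mean shifted share was 38.2%. Among reads that reached it, the shifted share was 58.6%, 52.0%, 50.6%, 52.9% and 52.0% in Tut4/7 CTL replicates 1 to 5 and 50%, 55.2%, 54.5% and 56.5% in Tut4/7 cKO replicates 1 to 4. The groups overlapped, and the shift log2 odds ratio was 0.10 ± 0.21 (SE; adjusted p = 0.851 in edgeR's quasi-likelihood test). The abundance of the miRNA was far less even than its split, since its total ranged from 167 to 11325 reads per library. The 95% Wilson interval of its share was between 2.51 and 23.8 percentage points wide. It supplied 58.8% of the shifted reads of Tut4/7 CTL replicate 2 and 46.5% of those of Tut4/7 cKO replicate 4, against 1.55% in Tut4/7 cKO replicate 2.

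Among reads that reached the mature 3′ end, miR-361-3p and miR-330-3p were read more often from the second mature base than from the first. The miR-361-3p share was 71.8%, 67.2%, 60.8%, 70.6% and 52.1% in Tut4/7 CTL and 70.6%, 60.9%, 68.9% and 85.1% in Tut4/7 cKO. The miR-330-3p share was 75.8%, 66.7%, 63.8%, 73.7% and 73.5% in Tut4/7 CTL and 79.1%, 68.3%, 80.8% and 76.9% in Tut4/7 cKO. Both pairs of groups overlapped, with adjusted p = 0.509 for each in edgeR's quasi-likelihood test. Counted by start alone, the mean shifted share of miR-361-3p was 53.3%.

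miR-140-3p, a miRNA known for a shifted 5′ end, had a share of 43.5%, 35.4%, 44.2%, 40.5% and 45.8% in Tut4/7 CTL and of 44.6%, 41.3%, 35.3% and 32.7% in Tut4/7 cKO, and the groups overlapped. Of the listed miRNAs known for 5′ variants, 8 had counts in these data, and miR-140-3p was the only covered one. miR-296-3p was the most variable of the strongly shifted miRNAs. Its share was 14.6%, 28.7%, 20.0%, 21.2% and 36% in Tut4/7 CTL and 54.1%, 54.5%, 43.8% and 12.2% in Tut4/7 cKO. Tut4/7 cKO replicates 1 to 3 lay above all controls and replicate 4 below them, with a log2 odds ratio of 1.14 ± 0.54 (SE; adjusted p = 0.324 in edgeR's quasi-likelihood test). Of the 11341 miR-296-3p reads, only 820 shifted and 1557 unshifted ones reached the mature 3′ end. Counted by start alone, its mean shifted share was 17.6%.

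miR-5099 was almost never read from its annotated start, with 31 unshifted reads over the 9 libraries and shares from 97.7% to 99.6%. Its main read, at offset 4, is 16 nt long, the shortest read length in the files, and had 2994 reads. This sequence lies once at the annotated locus and at 3 other places in GRCm39, so its origin cannot be told from the read. Below these 6 miRNAs and let-7d-3p, the highest mean shares were 5.76% for miR-223-3p, a myeloid miRNA, 5.24% for miR-378a-3p and 4.35% for miR-320-3p. miR-191-5p, miR-92a-3p and miR-423-3p reached the first 10 by reads (3425, 2782 and 1004) with shares of only 3.12%, 1.14% and 1.02%.

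Among miRNAs with at least 1000 reads in every one of the libraries, the lowest mean shifted shares were those of miR-24-3p, miR-148a-3p, let-7g-5p, let-7i-5p and miR-221-3p. They were 0.0272%, 0.0311%, 0.0427%, 0.0435% and 0.0532%. let-7i-5p had 189 shifted against 399820 unshifted reads.

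By arm, 13 of 33 covered 3p miRNAs and 4 of 41 covered 5p miRNAs had a mean shifted share above 1%. The median of the mean shares was 0.368% on the 3p arm and 0.154% on the 5p arm, against 0.241% over all covered miRNAs. Of the 5 covered members of the miR-17-92 cluster and its paralogs, mean shares ran from 0.106% to 1.14%. Of the 10 covered hematopoietic miRNAs, 9 had a shifted read, and mean shares ran from 0% in miR-221-5p to 53.6% in miR-10a-5p. Neither list had a member past the genotype test below, and the median log2 odds ratio was 0.04 over 5 tested members of the first list and 0.10 over 9 of the second, against 0.11 over all 61 miRNAs tested.

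The first base of the reads changed with the start. An A opened 67.3% ± 8.83 (SD, n = 5) of shifted and 19.4% ± 1.52 of unshifted reads of the controls. In the knockouts these were 60.5% ± 9.17 (SD, n = 4) and 21.1% ± 2.85. A T opened 3.96% ± 2.31 of shifted and 67.1% ± 1.17 of unshifted reads in Tut4/7 CTL. These shares weight miRNAs by reads, so that miR-10a-5p, whose shifted read opens with A, carries much of them where it is abundant.

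The seeds of shifted reads mostly matched no other mature miRNA among the 1758 mouse sequences searched. The main shifted reads of miR-10a-5p, miR-361-3p, miR-330-3p, miR-140-3p, miR-5099 and let-7d-3p shared bases 2 to 8 with 0 other miRNAs. By contrast the unshifted miR-10a-5p seed is that of miR-10b-5p. The reads of let-7i-5p, let-7f-5p, let-7d-5p and let-7a-5p shifted by 1 share 1 seed with each other, and it is also the seed of miR-196a-5p and miR-196b-5p, miRNAs encoded in the Hox clusters. The shifted miR-27b-3p seed is that of miR-128-3p, and the shifted miR-296-3p seed that of miR-7066-5p. The shifted reads of miR-92a-3p and miR-25-3p, which share their unshifted seed, again shared 1 seed.

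Taken over all covered miRNAs, the shifted share did not separate the genotypes. It was 1.71%, 3.02%, 1.37%, 2.12% and 1.15% in Tut4/7 CTL and 1.15%, 1.14%, 0.962% and 2.98% in Tut4/7 cKO. The difference was -0.315 percentage points (exact permutation test, two-sided, p = 0.524; adjusted over 6 comparisons 0.524). It was -0.029 without Tut4/7 CTL replicate 2 and -0.788 without Tut4/7 cKO replicate 4. Both high libraries were those rich in miR-10a-5p, and without this miRNA the controls averaged 1.32% ± 0.217 (SD, n = 5) and the knockouts 1.20% ± 0.302 (SD, n = 4). The median shifted share over miRNAs averaged 0.151% ± 0.0382 (SD, n = 5) over controls and 0.173% ± 0.0120 (SD, n = 4) over knockouts (exact permutation test p = 0.317, adjusted 0.524).

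Per miRNA, the odds of a shifted start differed between genotypes in 4 of 61 miRNAs tested (6.56%). They were higher in Tut4/7 cKO in 3 (4.92%) and lower in 1 (1.64%). A miRNA entered this test with a shifted read in at least 3 libraries. All 3 that rose were let-7 products, let-7d-3p, let-7a-5p and let-7d-5p, and the one that fell was miR-27b-3p. Without Tut4/7 CTL replicate 2 the count was 10, with 6 higher and 4 lower. Unadjusted p values were under 0.05 in 9 miRNAs, and DESeq2 called 3.

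let-7a-5p, a member of the tumor-suppressive let-7 family, had a shifted share of 0.101%, 0.526%, 0.0923%, 0.0698% and 0.0956% in Tut4/7 CTL and of 0.613%, 0.569%, 0.507% and 0.707% in Tut4/7 cKO. Tut4/7 CTL replicate 2 lay within the Tut4/7 cKO range, and the other 4 controls lay below it. The log2 odds ratio was 2.11 ± 0.42 (SE; adjusted p = 0.00331 in edgeR's quasi-likelihood test) and 2.73 without that library.

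let-7d-5p had a shifted share of 0.447%, 1.21%, 0.217%, 0.177% and 0.237% in Tut4/7 CTL and of 0.966%, 1.06%, 1.27% and 1.52% in Tut4/7 cKO. The same control library was again the one inside the Tut4/7 cKO range. The log2 odds ratio was 1.57 ± 0.41 (SE; adjusted p = 0.0194 in edgeR's quasi-likelihood test) and 2.23 without it. The call was lost when Tut4/7 CTL replicate 1 or 5 or Tut4/7 cKO replicate 1 or 3 was left out, with adjusted p from 0.0529 to 0.0896.

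let-7d-3p, the opposite arm of the same precursor, was the only tested miRNA whose Tut4/7 cKO shares all lay above the controls (1.64% of those tested). Its share was 3.61%, 12.3%, 5.79%, 6.50% and 4.67% in Tut4/7 CTL and 24.3%, 28.6%, 18.2% and 18.8% in Tut4/7 cKO, with a log2 odds ratio of 2.33 ± 0.44 (SE; adjusted p = 0.00331 in edgeR's quasi-likelihood test). The Tut4/7 cKO shares rest on 9, 12, 8 and 3 shifted reads, because few let-7d-3p reads reached the mature 3′ end there: 107 unshifted reads in Tut4/7 cKO against 4937 in Tut4/7 CTL. When reads were counted by their start alone, whether or not they reached the 3′ end, the log2 odds ratio was 0.67 and did not pass (adjusted p = 0.292).

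miR-27b-3p had 13, 4, 11, 12 and 6 shifted reads in Tut4/7 CTL and 0, 2, 1 and 2 in Tut4/7 cKO. Its share was 0.373%, 0.171%, 0.389%, 0.373% and 0.398% in Tut4/7 CTL and 0%, 0.186%, 0.0456% and 0.0478% in Tut4/7 cKO, where 0 of 275 reads in replicate 1 allows up to 1.09%. The log2 odds ratio was -2.23 ± 0.51 (SE; adjusted p = 0.00847 in edgeR's quasi-likelihood test). Of its 51 shifted reads, 39 ended in T past the mature end, and among reads that ended at the mature 3′ end the log2 odds ratio was -0.26 (adjusted p = 0.915). The call was also lost in DESeq2 (adjusted p = 0.111) and when Tut4/7 cKO replicate 3 or 4 was left out.

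The let-7 list as a whole had 7 covered members, all of them tested. The 3 named above rose and 0 fell, against 3 higher and 1 lower over all 61 miRNAs tested. The fitted log2 odds ratios were above 0 in all 7, against 35 of the 61, with a median of 1.57 against 0.11. Some rest on few reads. let-7c-5p had 6 shifted reads over all libraries, with 1.60 ± 1.22 (SE, adjusted p = 0.509 in edgeR's quasi-likelihood test), and let-7g-5p had 33. let-7f-5p had 1.05 ± 0.38 (SE; adjusted p = 0.125 in edgeR's quasi-likelihood test), and let-7i-5p 0.67 ± 0.32 (adjusted p = 0.324). Without Tut4/7 CTL replicate 2 both passed, with 1.37 and 0.89. miR-320-3p, made without Drosha cleavage, was the only tested miRNA whose Tut4/7 cKO shares all lay below the controls (1.64%). Its shares averaged 5.15% ± 0.548 (SD, n = 5) over controls and 3.35% ± 0.705 (SD, n = 4) over knockouts, with adjusted p = 0.0923 in edgeR's quasi-likelihood test.

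The 3′ ends of shifted reads were then compared with those of unshifted reads. A read ended in T when it extended past the mature 3′ end, where the reference held 3 added Ts. The next genomic base was a T in 36 of the 76 covered miRNAs, so that a T there need not have been added to the RNA. miR-92a-3p, which is followed by T in Mir92-1 and by A in Mir92-2, ended in T in 98.0% of shifted and 96.9% of unshifted reads. miR-378a-3p, which is followed by C, ended in T in 62.4% and 52.0%.

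Shifted reads of covered miRNAs ended in T in 14.7%, 7.64%, 21.3%, 16.5% and 29.3% of cases in Tut4/7 CTL and in 21.5%, 16.2%, 14.5% and 6.64% in Tut4/7 cKO. The groups overlapped, with a difference of -3.19 percentage points (exact permutation test, two-sided, p = 0.492; adjusted 0.524). It was -5.75 without Tut4/7 CTL replicate 2, -5.43 without Tut4/7 cKO replicate 1, -0.328 without Tut4/7 CTL replicate 5 and -0.494 without Tut4/7 cKO replicate 4. miR-92a-3p alone gave 2726 T-ending shifted reads over all libraries. Without it the share was 10.2%, 4.04%, 10.9%, 10.9% and 10.8% in Tut4/7 CTL and 4.51%, 5.77%, 5.49% and 4.32% in Tut4/7 cKO. Tut4/7 CTL replicate 2 then lay below every Tut4/7 cKO library and the other controls above them. When miRNAs whose locus continues with a T were left out, which kept 40, the share was 21.7%, 10.9%, 21.5%, 20.2% and 19.1% in Tut4/7 CTL and 6.35%, 12.1%, 7.40% and 14.1% in Tut4/7 cKO. Only Tut4/7 CTL replicate 2 lay within the Tut4/7 cKO range. The difference of -8.67 percentage points had p = 0.0476 in the exact permutation test and 0.143 after adjustment over the 6 comparisons, so it did not pass. Unshifted reads of the same miRNAs ended in T in 6.99% ± 2.52 (SD, n = 5) and 2.14% ± 0.525 (SD, n = 4). These shares weight miRNAs by reads, so the gap between read classes also reflects which miRNAs supply them. miR-378a-3p alone gave 370 T-ending shifted reads over controls and 358 over knockouts, at shares of 60.8% and 64.3%. Its unshifted reads ended in T in 52.8% and 51.0%. With unshifted reads weighted to the shifted ones miRNA by miRNA, the T-ending excess in this set was 1.75 percentage points over all libraries.

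To compare like with like, the T-ending share of unshifted reads was weighted to the shifted reads miRNA by miRNA. The shifted share exceeded it by 0.981, 1.57, 2.50, -1.12 and 0.273 percentage points in Tut4/7 CTL and by 1.3, 1.23, 1.84 and 2.07 in Tut4/7 cKO. It was higher in 8 of 9 libraries, and lower in Tut4/7 CTL replicate 4. The mean excess was 1.18 percentage points (exact sign-flip permutation test, two-sided, p = 0.0156), which did not pass after adjustment over the 6 comparisons (0.0938). It did not differ detectably between genotypes (0.770 percentage points more in Tut4/7 cKO, exact permutation test p = 0.349).

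Per miRNA, 19 had enough shifted reads for this comparison, that is at least 10 in at least 4 libraries and a T-ending one in at least 2. In Tut4/7 CTL the T-ending odds were higher in shifted than in unshifted reads in 3 of the 19 (15.8%) and lower in 0. Unadjusted p values were under 0.05 in 5, and DESeq2 called 3. Without Tut4/7 CTL replicate 2, 5 were higher and 2 lower.

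miR-423-5p had 1, 4, 9, 22 and 22 shifted reads in Tut4/7 CTL, of which 1, 3, 6, 14 and 14 ended in T. Pooled, this was 65.5% against 13.5% of unshifted reads, a log2 odds ratio of 3.64 ± 0.44 (SE; adjusted p = 3.41e-05 in edgeR's quasi-likelihood test). Over all libraries 56 of 87 reads at offset 2 and 10 of 32 at offset 1 ended in T, against 9.86% of unshifted reads. The base after the mature end is a T in Mir423, and 0 of the T-ending shifted reads had more Ts than the genome.

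let-7d-3p ended in T in 12.3% of shifted and 0.830% of unshifted Tut4/7 CTL reads, a log2 odds ratio of 4.17 ± 0.57 (SE; adjusted p = 6.9e-05 in edgeR's quasi-likelihood test). Its T-ending shifted reads numbered 3, 0, 10, 8 and 12 in Tut4/7 CTL. miR-181a-5p, a regulator of lymphoid development, ended in T in 46.8% of shifted and 22.2% of unshifted Tut4/7 CTL reads, a log2 odds ratio of 1.57 ± 0.43 (SE; adjusted p = 0.0203 in edgeR's quasi-likelihood test). This call was lost when Tut4/7 CTL replicate 1, 3 or 4 was left out. In both, the mature sequence is followed by genomic T, and a T tail longer than that of the genome was read in 8 of the 35 T-ending shifted let-7d-3p reads and in 0 of those of miR-181a-5p.

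Between genotypes, the T-ending odds of shifted reads fell in 6 of the 19 miRNAs in Tut4/7 cKO (31.6%) and rose in 0 (0.0%). Unadjusted p values were under 0.05 in 10, and DESeq2 called 8. Without Tut4/7 CTL replicate 2, 10 fell and 1, let-7a-5p, rose. In unshifted reads of the same 19 miRNAs the T-ending odds fell in 11 (57.9%). The filter asks for T-ending shifted reads. miR-423-3p, let-7d-5p, miR-296-3p and miR-25-3p had such reads in Tut4/7 CTL alone, so that their entry favored a fall. miR-361-3p and miR-330-3p had 1 such read each in Tut4/7 cKO, so they too could enter only with control reads. let-7a-5p entered only with its Tut4/7 cKO reads, which favored a rise. The count of 6 is therefore a description of the miRNAs that passed, not of all 76.

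miR-191-5p had the most T-ending shifted reads among the 6 except miR-223-3p: 27, 7, 30, 36 and 21 in Tut4/7 CTL and 1, 2, 4 and 2 in Tut4/7 cKO. All Tut4/7 CTL counts lay above all Tut4/7 cKO counts, from similar numbers of shifted reads (1877 and 1548). The mature sequence is followed by genomic T in Mir191. Over all libraries 122 of the 130 T-ending shifted reads were 1 sequence found there, so its T need not have been added to the RNA. The log2 odds ratio was -3.38 ± 0.67 (SE; adjusted p = 8.59e-05 in edgeR's quasi-likelihood test), and the pooled share was 11.1-fold higher in Tut4/7 CTL.

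miR-223-3p had 39, 9, 43, 38 and 10 T-ending shifted reads in Tut4/7 CTL and 1, 2, 2 and 3 in Tut4/7 cKO, with a log2 odds ratio of -3.15 ± 0.78 (SE; adjusted p = 0.000895 in edgeR's quasi-likelihood test). Without Tut4/7 cKO replicate 4 this call was lost (-2.31, adjusted p = 0.064). miR-320-3p had 10, 0, 7, 19 and 13 against 1, 2, 0 and 1, with -3.23 ± 0.89 (adjusted p = 0.0027). Neither sequence is followed by a genomic T. Tut4/7 CTL replicate 2 was the lowest control for both.

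miR-423-3p had 6, 0, 7, 0 and 22 T-ending shifted reads in Tut4/7 CTL and 0 in every Tut4/7 cKO library. It entered the test only through these control reads, so its entry favored a fall. Pooled, 35 of 508 against 0 of 496 shifted reads gave a share at least 11.4-fold higher in Tut4/7 CTL, computed from 3 counts over the group (adjusted p = 0.000895 in edgeR's quasi-likelihood test). let-7d-5p had 5 of 90 against 0 of 328, at least 6.07-fold higher in Tut4/7 CTL (adjusted p = 0.00676), and 3 of the 5 reads came from replicate 1. This call was lost without Tut4/7 CTL replicate 1 (adjusted p = 0.0924) or 5 (adjusted p = 0.0547). let-7d-5p also entered the test only through its control reads, so its entry favored a fall. miR-361-3p had 13 of 2094 against 1 of 1910 (adjusted p = 0.0315), and its call was lost when any of 6 libraries was left out. With 1 Tut4/7 cKO read it could enter the test only with control reads, which favored a fall. The let-7d-5p and miR-361-3p sequences are followed by genomic T, so a T there need not have been added to the RNA.

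The genotype effect on T-ending differed between shifted and unshifted reads in 1 of 19 miRNAs (5.26%), let-7a-5p. Its unshifted reads ended in T in 5.73% of cases in Tut4/7 CTL and 0.812% in Tut4/7 cKO, whereas its T-ending shifted reads numbered 0, 4, 0, 0 and 0 in Tut4/7 CTL and 0, 4, 10 and 16 in Tut4/7 cKO. The difference of the log2 odds ratios was 4.01 ± 1.07 (SE; adjusted p = 0.0233 in edgeR's quasi-likelihood test). Of these 34 shifted reads, 26 were 1 sequence at offset 2 with 2 Ts, and both Ts are in the genome at Mirlet7a-1. DESeq2 also called 1 miRNA, and the unadjusted p was under 0.05 in 1. The call was lost when any of 6 single libraries was left out, with adjusted p from 0.069 to 0.14. Without its Tut4/7 cKO reads let-7a-5p would have missed the filter of a T-ending shifted read in at least 2 libraries. Its entry therefore favored this difference.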

How the data were processed

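sRNA-seq was performed on the 15 to 40 nt fraction of 1 µg total RNA with 16 PCR cycles, without molecular identifiers. The authors trimmed adapters with cutadapt 5.0, mapped reads without mismatches to mature miRNA sequences with 3 Ts added (Bowtie 1.3.1) and deposited raw counts of each read sequence with its coordinates, and raw counts per miRNA. Reads that start before the mature 5′ end, or that are extended by other bases, are not counted by this mapping, and the shortest read of 16 nt limits the offset. Columns of the authors' own comparisons were not used.

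Library totals ranged from 175462 to 479342 reads, and intervals and limits of 3 counts cover counting error only. Odds were tested per miRNA with edgeR 4.0.16 (R 4.3.3; glmQLFit and glmQLFTest, library terms plus a read class by genotype interaction, Benjamini-Hochberg adjustment, threshold 0.05). The tests of shifted against unshifted reads instead had terms per library and start (shifted or unshifted), with T-ending and its interactions. They had no T-ending term per library, so the pairing of both read classes within a library was not modelled for T-ending. DESeq2 1.42.0 was an alternative. Single values were compared with exact two-sided permutation tests in SciPy 1.17.1, whose smallest p is 0.0159 for 5 against 4 libraries and 0.00391 for sign flips over 9. For the weighted T-ending share, 1 unshifted read of the miRNA in the library was enough. The paper states that replicates came from independent animals or embryos, and the labels give no batches.

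The models were tested on simulated data, 10 draws each. For the shift odds (61 miRNAs, log2 odds ratio of 2) 56% of 150 changed miRNAs were recovered, with 1 false call among 460. For the T-ending odds of shifted reads (19 miRNAs) 56% of 50 were recovered at -3, with 2 false calls among 140, and 68% at -4, with 0. The size of -4 was added after -3 had done poorly in a first version.

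Named miRNAs were the 10 with the most shifted reads, the 10 with the highest mean shifted share, the leaders at offsets 1 to 3, the 5 with the lowest share among those with at least 1000 reads in every library, those past a threshold, and members of fixed lists. Members and lists were chosen with earlier results of these data known. Sequences were read from the deposited files, and coordinates from exact matches to GRCm39. RefSeq mature sequences (GRCm38.p6) served the seed search.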

Additional observations from a re-analysis of the deposited data

Results flagged for a closer look

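Of 42 groups tested with Dixon's criterion, 8 had an outlying library, and chance alone flags about 1 group in 20. Tut4/7 CTL replicate 2 was the highest control for the shifted share of let-7a-5p (0.526%) and let-7d-5p (1.21%), and the lowest for miR-27b-3p (0.171%) and for the T-ending share of shifted reads without genomic T (10.9%). Its median uridylated share also lay nearest to the Tut4/7 cKO libraries, and the part of this in the other values was not tested. Tut4/7 CTL replicate 3 was the highest control for miR-223-3p (8.27%), and Tut4/7 cKO replicate 1 the lowest of its group (2.97%). Tut4/7 cKO replicate 3 had the lowest miR-5099 share of its group (99.0%), and Tut4/7 cKO replicate 4 the highest shifted share over all covered miRNAs (2.98%), which was 1.63% without miR-10a-5p.

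The genotype effect on T-ending of let-7a-5p differed between shifted and unshifted reads by 4.01 on the log2 scale, by an interaction test. As given above, let-7a-5p entered this test only with its Tut4/7 cKO reads, which favored this difference. Of its 34 T-ending shifted reads, 26 were 1 sequence whose Ts are in the genome at Mirlet7a-1. The call was lost when any of 6 single libraries was left out.

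Outside the covered miRNAs, 5 with at least 50 shifted reads had a pooled shifted share above 50%, limits chosen after the values were seen. miR-3963 had 613 shifted and 0 unshifted reads (100%), 601 of them at offset 3, and miR-1306-5p had 83 and 0 (100%), 81 of them at offset 2. miR-709 had 51 and 3 (94.4%), miR-142a-3p 72 and 40 (64.3%) and miR-5128 50 and 33 (60.2%).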

How the results depend on the processing

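The excess of T-ending in shifted over unshifted reads (1.18 percentage points, unadjusted p = 0.0156) kept its sign under all 20 alternatives. It was 1.08 at a minimum of 200 reads, 1.05 without miR-10a-5p, 0.841 in Tut4/7 CTL alone and 1.61 in Tut4/7 cKO alone, with p above 0.05 in each, though 5 or 4 libraries cannot go below 0.0625 or 0.125. With equal weight per miRNA it was 5.07, and without miRNAs followed by a genomic T it was 1.75 (exact sign-flip permutation p = 0.00391 each). Other alternatives were chosen after seeing the data. Requiring at least 10 unshifted reads of the miRNA in the library, or leaving out miR-5099, which has 1 to 6 per library, gave 1.69 each (exact sign-flip permutation p = 0.00391). Counting only T tails longer than the genomic T run gave 0.42 (exact p = 0.00391). The shift odds of reads that end at the mature 3′ end, also added, changed in 3 miRNAs. Leaving out single libraries gave 1.02 to 1.47. The T-ending difference without genomic T ranged from -10.6 to -7.45 when a library was left out and was -10.3 at a minimum of 200 reads, with p above 0.05 in these except without Tut4/7 CTL replicate 2. The shifted share over all miRNAs differed by -0.788 to -0.029 without single libraries, with an unadjusted exact permutation p of 0.0357 without Tut4/7 cKO replicate 4 and above 0.05 without each other library. The median share reversed to -0.0248 at a minimum of 10 reads and to -0.00622 by start alone. Leaving out single libraries gave 2 to 10 miRNAs with changed shift odds, 4 to 11 with changed T-ending odds of shifted reads, 2 to 7 with different T-ending odds in Tut4/7 CTL and 0 to 1 with a different genotype effect, with the highest of the first 3 counts without Tut4/7 CTL replicate 2. The cause was not tested. Counted by start alone, the mean shifted share was 17.6% for miR-296-3p, 7.08% for let-7d-3p, 38.2% for miR-10a-5p, 53.3% for miR-361-3p and 2.55% for miR-191-5p. At offset 1 only it was 71.0% for miR-5099.

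The labels give same-numbered libraries no link beyond the number. Correlations of their deviations over 27 miRNAs were 0.028, 0.028, -0.38 and 0.226, and 1 of 4 control libraries correlated best with its own number. So few correlations cannot exclude a shared origin. With the replicate block, without Tut4/7 CTL replicate 5, 5 miRNAs had changed shift odds and 8 changed T-ending odds of shifted reads.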
